A study of Homo sapiens with 12 samples.

Results

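HOX genes encode homeodomain transcription factors that set positional identity along the body axis, and in blood they mark stem and progenitor cells. They lie in 4 clusters, HOXA to HOXD, in which genes are numbered by paralogue group from the anterior end, where the low numbers lie, to the posterior end. Trithorax-type methyltransferases and the KDM6 demethylases are known to keep HOX genes active, and Polycomb complexes to keep them silent. In T-cell leukaemia, high HOXA expression is known from a class of cases that is distinct from the class driven by the transcription factor TAL1. The 38 HOX genes described here were taken from a list of gene symbols, matched to Ensembl identifiers, with no threshold on a measured value, and the list was chosen with earlier results of these data known. The list holds 10 HOXA, 10 HOXB, 9 HOXC and 9 HOXD genes, out of 33704 genes with an entry in any of the 3 deposited count tables, and 35 of the 38 have an entry.

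Messenger RNA was sequenced from Jurkat, a human line derived from a T-cell leukaemia and dependent on TAL1. The 12 libraries formed 6 groups of 2. TAL1-KD libraries came from cells that carry a doxycycline-inducible shRNA against TAL1 and were given doxycycline at 5 µg/ml for 72 h. TAL1-control libraries came from the same line with no doxycycline. UTX-KD and UTX-control libraries came, in the same way, from a line with an inducible shRNA against UTX, the product of KDM6A, which removes the Polycomb mark from histone H3. J4-2uM libraries came from Jurkat cells given GSK-J4, a small-molecule inhibitor of KDM6 demethylases, at 2 µM for 72 h, and J4-control libraries from cells given the DMSO vehicle for 72 h. The shRNA lines were grown in Tet-free serum with blasticidin and, per the first label, G418, and the GSK-J4 cultures in ordinary serum without them. Nothing in the labels names separate cultures, so p-values here reflect only how far these samples spread, which may be technical. Whether an shRNA line was 1 clone is not given. The study asked how gene expression in TAL1-driven leukaemia responds to loss of TAL1, loss of UTX and inhibition of UTX, and the comparisons below ask this of the HOX genes.

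Counted reads per library ranged from 55524079 to 82534711, of which 0.0156% to 0.0222% fell on the 38 HOX genes. The targeted mRNAs were not shown to be lower. TAL1 had 252 and 278 CPM (counts per library scaled to depth) in TAL1-KD libraries, against 272 and 276 CPM in TAL1-control libraries (log2 fold change -0.07 ± 0.09, adjusted p = 0.490). KDM6A had 29.6 and 29.8 CPM in UTX-KD libraries, against 30.8 and 31.2 CPM in UTX-control libraries (log2 fold change -0.08 ± 0.04, adjusted p = 0.103). The groups are therefore named by their labels throughout, and a direction given for the libraries labelled TAL1-KD or UTX-KD is that of doxycycline-treated against untreated cells of a line. The 2 libraries labelled TAL1-KD stood apart from each other more than any other pair, with a chi-square per degree of freedom over the genes tested of 36.1, against 2.07 to 5.96 in the other 5 pairs. All 11 markers of T cells and T-cell leukaemia were detected, and their summed level was 3302 to 3789 CPM in TAL1-KD, against 2757 to 2900 CPM in TAL1-control libraries. It was 2718 to 2766 CPM in UTX-KD, against 2436 to 2458 CPM in UTX-control libraries, and 1693 to 1771 CPM in J4-2uM, against 1918 to 1930 CPM in J4-control libraries. The summed levels of the 4 epithelial, 4 erythroid and 4 myeloid markers stayed at or below 1.88, 0.0721 and 0.608 CPM in every library. With GSK-J4 the B-cell sum was 77.2 to 85.4 CPM in J4-2uM libraries, against 36.6 to 36.8 CPM in J4-control libraries, the fibroblast sum 17.05 to 17.95 CPM against 9.85 to 10.1 CPM, and the epithelial sum 1.71 to 1.88 CPM against 0.634 to 0.636 CPM. The B-cell sum was also higher in UTX-KD (57.9 to 59.5 CPM) than in UTX-control libraries (40.2 to 41.2 CPM), but not in TAL1-KD (67.4 to 72.0 CPM) against TAL1-control libraries (75.4 to 77.6 CPM). The fibroblast sum was lower in TAL1-KD (6.76 to 6.96 CPM) than in TAL1-control libraries (10.4 to 10.5 CPM), and in UTX-KD (4.30 to 4.50 CPM) than in UTX-control libraries (4.83 to 4.92 CPM). None of the 4 B-cell, fibroblast or epithelial markers was at 0 in every library, but few passed the filter on low counts. In the TAL1-KD and UTX-KD comparisons 1 B-cell, 2 fibroblast and 1 epithelial markers passed it. In the GSK-J4 comparison 3, 2 and 1 passed it, so each sum may rest on few genes. The part of these markers in the results below was not tested.

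No cluster was silent as a whole, and each had both well-expressed and nearly silent genes. Per kilobase of exonic length (CPM per kb, the only scale on which levels of different genes are compared here), 9 genes stood at 1 CPM per kb or more in every group: HOXA5, HOXA6 and HOXA7, HOXB3, HOXB4 and HOXB7, HOXC10, and HOXD8 and HOXD13. A further 4 reached that level in some groups, namely HOXA3, HOXB9, HOXB13 and HOXC11, and 16 stayed below it in every group. At most 3 reads in every library were counted for 6 genes with an entry, HOXA9, HOXA10, HOXB6, HOXC5, HOXD4 and HOXD9. HOXB1, HOXC12 and HOXD1 had no entry in any of the tables, which list no gene whose 4 libraries all hold 0 reads. The central genes HOXA9 and HOXA10, known for high levels in the HOXA class of leukaemia, were thus near 0, and HOXA9 was listed only in the GSK-J4 table, with 2 and 0 reads in J4-2uM libraries and 0 and 0 reads in J4-control libraries, where a count of 0 allows up to 3 reads per library.

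In the HOXA cluster the genes at 1 CPM per kb or more in some or every group were HOXA3, HOXA5, HOXA6 and HOXA7. At the posterior end HOXA13 stayed below that level, at 0.0513 to 0.410 CPM per kb over the groups. Between HOXA7 and HOXA13, HOXA9 and HOXA10 were near 0 and HOXA11 stood at 0.0102 to 0.0683 CPM per kb. HOXA7 was the highest of all 38 genes per length in 3 groups, at 9.37 ± 0.212 CPM per kb in UTX-KD, 9.92 ± 0.326 CPM per kb in UTX-control and 9.42 ± 0.382 CPM per kb in J4-control libraries (SD, n = 2, as for every mean ± SD here). In UTX-KD libraries HOXB7 followed at 9.34 ± 0.578 CPM per kb, within the spread of HOXA7. HOXB4 led in TAL1-KD libraries (11.8 ± 0.951 CPM per kb), HOXD8 in TAL1-control libraries (10.1 ± 0.168 CPM per kb), and HOXC10 in J4-2uM libraries (10.9 ± 0.532 CPM per kb). The same 7 genes, HOXA7, HOXB3, HOXB4, HOXB7, HOXC10, HOXD8 and HOXD13, held the first 7 places in TAL1-KD, TAL1-control and J4-2uM libraries, and in the 3 other groups HOXA5 stood at place 6 or 7 among them. In the HOXD cluster the terminal gene HOXD13, which patterns digits and external genitalia, was high, HOXD12 beside it had 12 to 88 reads in every library, and HOXD9, HOXD10 and HOXD11 further on had at most 2, 4 and 6 reads in any library. HOXB genes held the largest share of HOX reads in every group, from 40.2% in J4-control to 56.1% in TAL1-KD libraries. These shares are not scaled by length, and HOXB3 alone has 7456 exonic bases, so they do not rank the clusters by level. Exons of the near-silent HOXD4, HOXD3 and HOXC5 overlap same-strand neighbours over 80.5%, 62.2% and 59.9% of their length in GENCODE 29, so their counts depend on how shared reads were assigned, which is not stated.

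**Figure D1:**
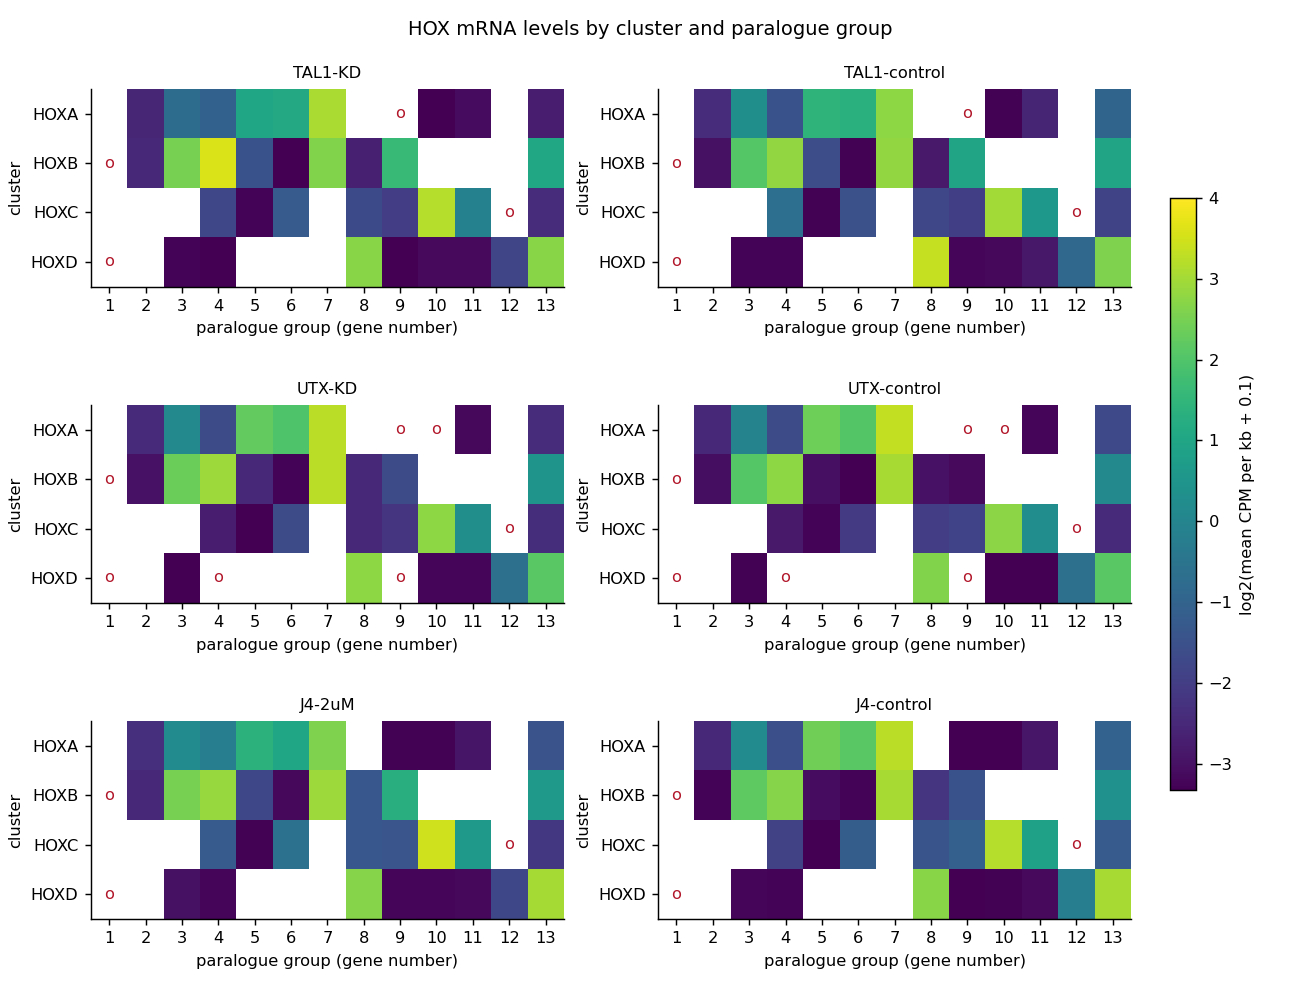
Mean level of each HOX gene in the 6 groups as log2(CPM per kb + 0.1), by cluster (rows) and gene number (columns), over 2 libraries a group. A red circle marks a listed gene with no entry in that table and white squares are not among the 38 genes; every cluster has bright and dark squares, and HOXA7, HOXB4, HOXB7, HOXC10 and HOXD8 are bright in every panel.

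Each comparison was tested with edgeR's quasi-likelihood test on the reads of all genes (two-sided, Benjamini-Hochberg adjusted p under 0.05 over all genes tested), and a change is given as log2 fold change ± standard error. In TAL1-KD against TAL1-control libraries, 23 HOX genes passed the filter on low counts, 4 rose and 7 fell, which is 47.8% of those tested, against 54.2% of all genes tested. In UTX-KD against UTX-control libraries, 22 were tested, 7 rose and 3 fell, or 45.5%, against 50.5% of all genes. In J4-2uM against J4-control libraries, 25 were tested, 11 rose and 7 fell, or 72.0%, against 74.9% of all genes. Without TAL1-control replicate 1 or 2 the TAL1-KD rises numbered 2 and 1, and without UTX-control replicate 1, UTX-control replicate 2 or UTX-KD replicate 1 the UTX-KD drops numbered 1. HOX genes as a set were thus called about as often as other genes in each comparison. Their median log2 fold change was -0.07 for TAL1-KD, 0.03 for UTX-KD and 0.12 for J4-2uM, against medians of -0.02, 0.01 and 0.01 over all genes tested. In these bulk libraries, fewer cells that express a gene and less RNA per cell cannot be told apart. Of the 25 genes tested in at least 1 comparison, 22 were called in at least 1, and 13 of the 38 were tested in none. The share of all genes called in at least 1 was not computed, so the 22 say nothing particular of HOX genes. Genes that passed the filter only through the group where they were higher numbered 2, 3 and 3 of those tested in the TAL1-labelled, UTX-labelled and GSK-J4 comparisons, and 0, 3 and 2 of these were among the calls.

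**Figure D2:**
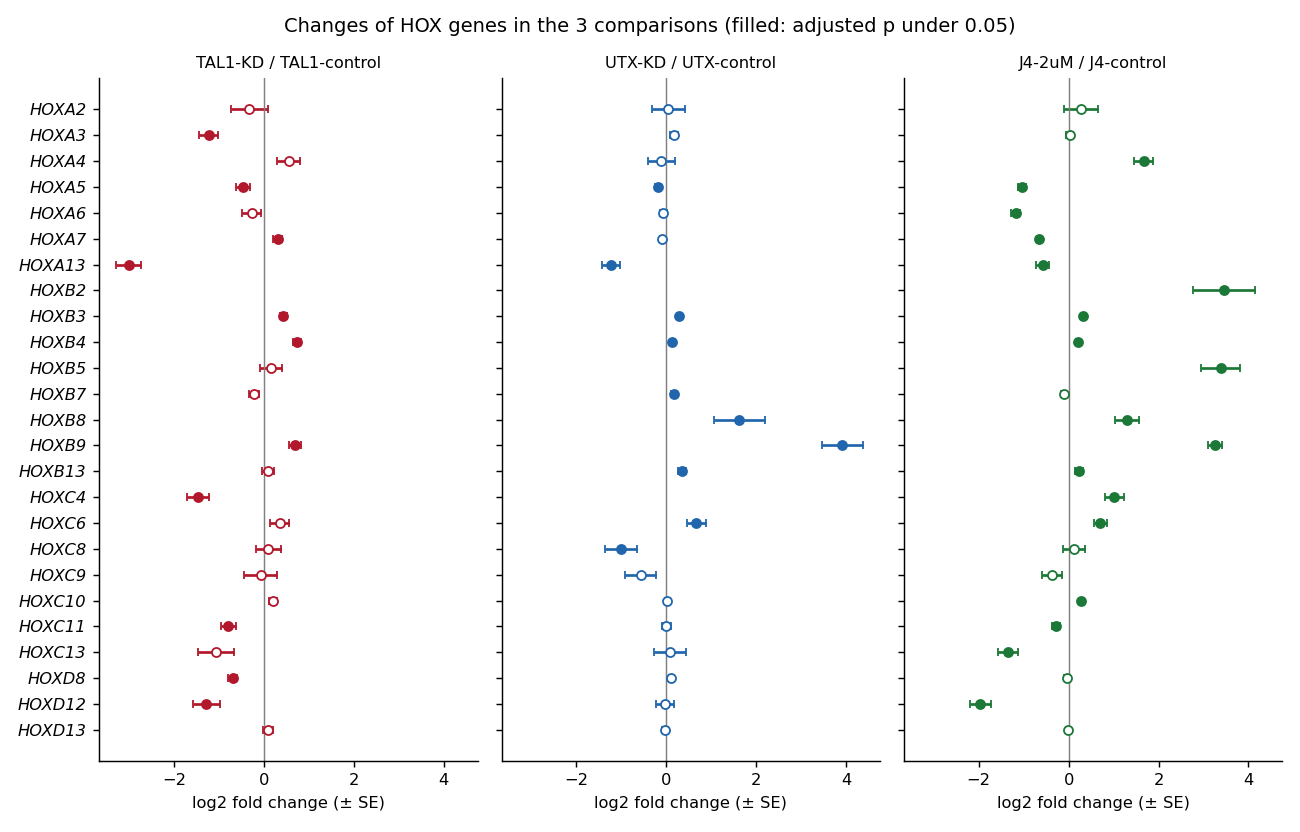
Log2 fold change of each tested HOX gene (rows) with its standard error in the 3 comparisons, 2 libraries a group; filled points have an adjusted p under 0.05. HOXB genes lie right of 0 wherever filled, HOXA13 lies left of 0 in all 3 panels, and the largest rises are those of HOXB9 (UTX-KD 3.92, J4-2uM 3.26), HOXB2 and HOXB5.

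The same direction was called in all 3 comparisons for 5 of the 21 HOX genes tested in all 3: HOXB3, HOXB4 and HOXB9 were higher in each treated group, and HOXA5 and HOXA13 were lower. Among all genes tested in all 3 comparisons, 15.0% were called in the same direction each time, so 5 of 21, 23.8%, is set against that share. Among all genes 8.02% were higher in all 3 and 6.98% lower, against 3 and 2 of the 21 HOX genes. With DESeq2, HOXB3, HOXB9 and HOXA13 were called in all 3, which is 3 of the 18 HOX genes with an adjusted p in all 3 (16.7%), against 11.8% of all genes. HOXA5 was then lost in TAL1-KD (adjusted p = 0.0975) and UTX-KD (adjusted p = 0.183) and HOXB4 in UTX-KD (adjusted p = 0.115). The 3 comparisons share no library.

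**Figure D3:**
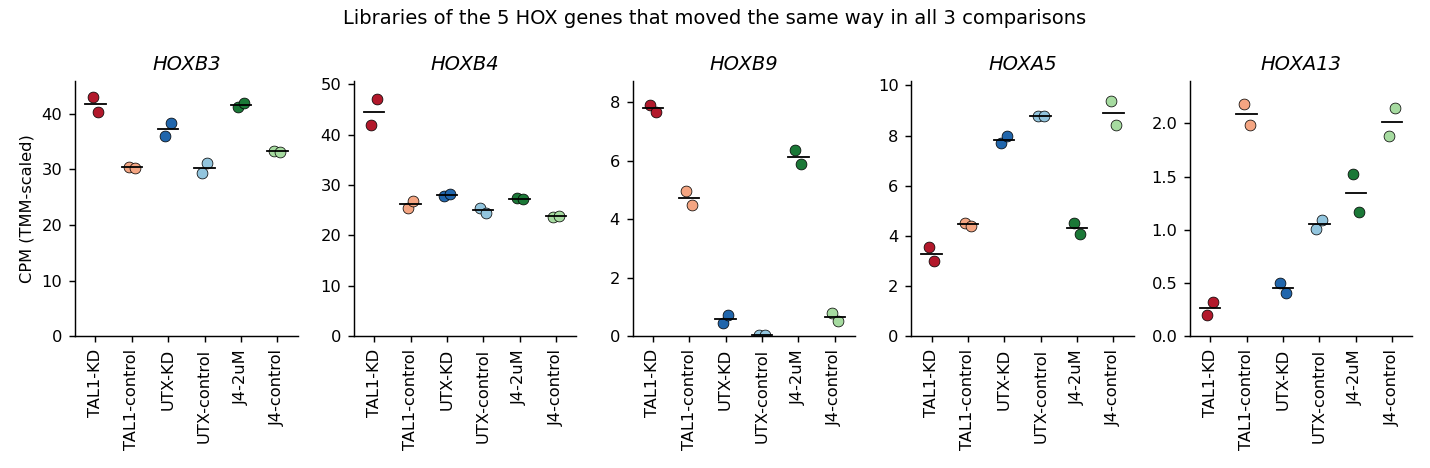
TMM-scaled CPM of HOXB3, HOXB4, HOXB9, HOXA5 and HOXA13 in each of the 12 libraries; points are libraries and lines are means of 2. The treated points lie above their controls for the HOXB genes and below them for HOXA5 and HOXA13, and HOXB9 starts from 3 different control levels.

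The HOXB genes moved mostly upward. HOXB genes called higher numbered 3 of 6 tested in TAL1-KD, 6 of 6 in UTX-KD and 7 of 8 in J4-2uM libraries, against 26.3%, 25.2% and 37.9% of all genes called higher. Of these calls, 2 of the 6 in UTX-KD (HOXB8 and HOXB9) and 2 of the 7 in J4-2uM libraries (HOXB2 and HOXB5) were of genes that passed the filter only through the treated group, where a call in the other direction was hardly possible. DESeq2 called 3, 2 and 6 higher, and the TAL1-KD count was 2 without TAL1-control replicate 1 and 1 without replicate 2. None was called lower by edgeR in any of the 3, with 0 lower at an unadjusted p under 0.05 and 0 called lower by DESeq2. Leaving out TAL1-KD replicate 1 or J4-2uM replicate 1, and fitting all 12 libraries together for TAL1-KD, each gave 1 lower HOXB call. HOXB2, HOXB5 and HOXB8 with the UTX-labelled or GSK-J4 comparison rest on few control reads, given below. The summed level of the cluster was 111 ± 0.502 CPM in TAL1-KD, against 78.8 ± 0.723 CPM in TAL1-control libraries. It was 84.9 ± 2.91 CPM in UTX-KD, against 71.4 ± 0.766 CPM in UTX-control libraries. With GSK-J4 it was 92.7 ± 0.713 CPM in J4-2uM, against 74.6 ± 0.736 CPM in J4-control libraries. The libraries of each treated group lay above their controls. HOXB3 and HOXB4 made up most of these sums. Their means were 41.7 and 44.5 CPM in TAL1-KD, against 30.4 and 26.2 CPM in TAL1-control libraries. HOXB7 had a mean of 9.24 CPM in TAL1-KD, against 10.5 CPM in TAL1-control libraries. The sum is thus no separate sign of a rise over the whole cluster.

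**Figure D4:**
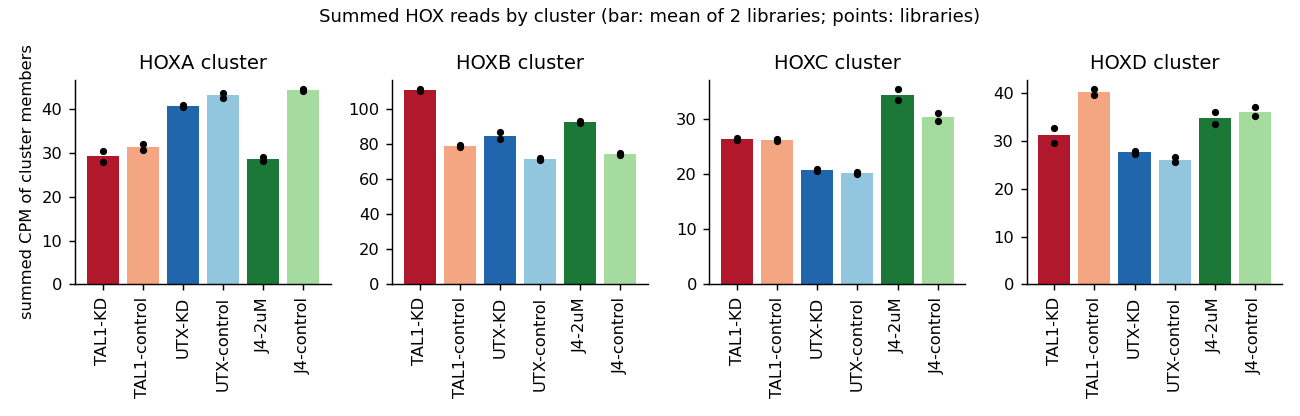
Summed TMM-scaled CPM of the listed genes of each cluster by group; bars are means of 2 libraries and points are libraries, and each panel has its own axis from 0. The HOXB sum is higher in each treated group (111, 84.9 and 92.7 CPM) than in its control (78.8, 71.4 and 74.6 CPM), and the HOXA sum is lower in J4-2uM (28.7 CPM) than in J4-control libraries (44.4 CPM).

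HOXB9, a posterior gene that patterns the thoracic skeleton in mice, was called higher in all 3 comparisons. It had 6.38 and 5.91 CPM in J4-2uM libraries, against 0.810 and 0.519 CPM in J4-control libraries, and rose by a log2 fold change of 3.26 ± 0.15 with GSK-J4 (adjusted p = 3.1e-10). In the UTX-labelled line it had 33 and 49 reads in UTX-KD libraries, against 3 and 2 reads in UTX-control libraries, a ratio of depth-scaled sums of 16.0 (95% interval 6.59 to 50.6), covering counting error only. It passed the filter only through the UTX-KD libraries (log2 fold change 3.92 ± 0.46, adjusted p = 1.62e-06). In the TAL1-labelled line, where its control level was highest, it had 7.92 and 7.67 CPM in TAL1-KD libraries, against 4.98 and 4.48 CPM in TAL1-control libraries (log2 fold change 0.70 ± 0.13, adjusted p = 0.00402). The groups did not overlap in any of the 3 comparisons, and the call in TAL1-KD was lost without TAL1-control replicate 2 (adjusted p = 0.0623). The absolute level after treatment differed widely: both UTX-KD libraries stayed below 1 CPM, while the TAL1-KD and J4-2uM libraries lay above 5 CPM.

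HOXB4, which expands blood stem cells when overexpressed, had 42.0 and 47.0 CPM in TAL1-KD libraries, against 25.5 and 26.9 CPM in TAL1-control libraries (log2 fold change 0.74 ± 0.09, adjusted p = 0.000794). It had 27.8 and 28.2 CPM in UTX-KD libraries, against 25.5 and 24.5 CPM in UTX-control libraries (log2 fold change 0.14 ± 0.04, adjusted p = 0.0131). It had 27.4 and 27.2 CPM in J4-2uM libraries, against 23.7 and 23.9 CPM in J4-control libraries (log2 fold change 0.21 ± 0.04, adjusted p = 0.000696). The groups did not overlap in any comparison, and the rise was largest in TAL1-KD libraries. The UTX-KD call of HOXB4 was lost without UTX-control replicate 2 (adjusted p = 0.113). HOXB3, its neighbour, which acts with HOXB4 in blood stem cells in mice, had 43.0 and 40.4 CPM in TAL1-KD libraries, against 30.5 and 30.3 CPM in TAL1-control libraries (log2 fold change 0.43 ± 0.08, adjusted p = 0.00451). It had 36.0 and 38.3 CPM in UTX-KD libraries, against 29.4 and 31.1 CPM in UTX-control libraries (log2 fold change 0.28 ± 0.04, adjusted p = 5.32e-05). It had 41.3 and 42.0 CPM in J4-2uM libraries, against 33.3 and 33.2 CPM in J4-control libraries (log2 fold change 0.33 ± 0.04, adjusted p = 4.08e-06). The rises lay between 0.28 and 0.43 on the log2 scale, and the TAL1-KD call was lost without TAL1-control replicate 1 (adjusted p = 0.0609) or replicate 2 (adjusted p = 0.0689).

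HOXB13, the most posterior HOXB gene and a lineage factor of the prostate, had 4.52 and 4.42 CPM in UTX-KD libraries, against 3.40 and 3.50 CPM in UTX-control libraries (log2 fold change 0.36 ± 0.09, adjusted p = 0.00331). It had 5.11 and 4.70 CPM in J4-2uM libraries, against 4.26 and 4.15 CPM in J4-control libraries (log2 fold change 0.23 ± 0.09, adjusted p = 0.0301). The GSK-J4 call was lost without any 1 of J4-control replicate 1, J4-control replicate 2 and J4-2uM replicate 1, with adjusted p from 0.0849 to 0.170. It had 7.32 and 6.43 CPM in TAL1-KD libraries, against 6.14 and 6.58 CPM in TAL1-control libraries, where the groups overlapped (log2 fold change 0.09 ± 0.14, adjusted p = 0.596). HOXB7, a mid-cluster gene, had 13.6 and 14.9 CPM in UTX-KD libraries, against 12.5 and 12.6 CPM in UTX-control libraries (log2 fold change 0.17 ± 0.06, adjusted p = 0.0260). This call was lost without UTX-control replicate 1 (adjusted p = 0.0982) or UTX-KD replicate 2 (adjusted p = 0.219). In the other comparisons HOXB7 lay lower in the treated libraries, without a call. It had 9.60 and 8.88 CPM in TAL1-KD libraries, against 10.5 and 10.6 CPM in TAL1-control libraries (log2 fold change -0.21 ± 0.11, adjusted p = 0.151). It had 11.8 and 11.1 CPM in J4-2uM libraries, against 12.9 and 12.01 CPM in J4-control libraries (log2 fold change -0.11 ± 0.06, adjusted p = 0.122). Neither difference was called.

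HOXB2, HOXB5 and HOXB8 were near 0 in several control groups and are given as reads. HOXB5 had 30 and 35 reads in J4-2uM libraries, against 2 and 3 reads in J4-control libraries (log2 fold change 3.38 ± 0.44, adjusted p = 1.02e-05), a ratio of 10.8 (95% interval 4.40 to 34.4). HOXB2, an anterior gene that patterns the hindbrain, had 15 and 14 reads in J4-2uM libraries, against 0 and 2 reads in J4-control libraries (log2 fold change 3.45 ± 0.69, adjusted p = 0.000483), a ratio of 12.04 (95% interval 3.05 to 104). The HOXB2 fold change was 6.72 without J4-control replicate 2, which holds both of the control reads, and 2.72 without replicate 1. Both passed the filter only through the J4-2uM libraries, and no library of one group overlapped the other. HOXB8, which keeps mouse myeloid progenitors dividing when overexpressed, had 51 and 47 reads in J4-2uM libraries, against 11 and 22 reads in J4-control libraries (log2 fold change 1.30 ± 0.26, adjusted p = 0.000538). In the UTX-labelled line HOXB8 had 13 and 10 reads in UTX-KD libraries, against 2 and 5 reads in UTX-control libraries (log2 fold change 1.62 ± 0.56, adjusted p = 0.0237). It passed the filter there only through the UTX-KD libraries and lost its call without UTX-control replicate 1 (adjusted p = 0.374) or UTX-KD replicate 1 (adjusted p = 0.126). HOXB5 had 9 and 13 reads in UTX-KD libraries, against 3 and 3 reads in UTX-control libraries and was not tested there. In the TAL1-labelled line, where its control level was higher, it had 29 and 30 reads in TAL1-KD libraries, against 35 and 28 reads in TAL1-control libraries (log2 fold change 0.16 ± 0.25, adjusted p = 0.610). Neither HOXB2 nor HOXB8 was tested in the TAL1-labelled line, where HOXB2 had 9 and 12 reads in TAL1-KD libraries, against 5 and 3 reads in TAL1-control libraries, and HOXB8 had 4 and 9 reads in TAL1-KD libraries, against 9 and 3 reads in TAL1-control libraries.

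In the HOXA cluster, GSK-J4 was followed by a drop of 3 neighbouring genes and a rise of the one beside them. HOXA5, HOXA6 and HOXA7, which are active in blood progenitors, fell in J4-2uM libraries, and HOXA4, next to HOXA5 on the anterior side, rose. The HOXA genes called lower numbered 4 of 7 tested and those called higher 1 of 7, against 36.9% and 37.9% of all genes. Promoter windows from RefSeq (GRCh38.p14), the 250 bases before the gene start read on the gene's own strand, are shown for HOXA4, HOXA6 and HOXA7, neighbours that moved in opposite directions, and for HOXA13, the gene lower in all 3 comparisons. Capitals mark CANNTG, the E-box to which TAL1 binds with its E-protein partners, and windows of this kind were matched for 20 of the 38 genes. HOXA4, chr7:27130758-27131007, minus strand: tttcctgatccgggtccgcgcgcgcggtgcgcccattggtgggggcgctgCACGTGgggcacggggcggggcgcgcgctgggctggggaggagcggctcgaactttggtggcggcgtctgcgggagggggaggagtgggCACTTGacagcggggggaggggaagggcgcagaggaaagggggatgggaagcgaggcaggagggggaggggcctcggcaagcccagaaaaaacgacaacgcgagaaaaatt
HOXA6, chr7:27147775-27148024, minus strand: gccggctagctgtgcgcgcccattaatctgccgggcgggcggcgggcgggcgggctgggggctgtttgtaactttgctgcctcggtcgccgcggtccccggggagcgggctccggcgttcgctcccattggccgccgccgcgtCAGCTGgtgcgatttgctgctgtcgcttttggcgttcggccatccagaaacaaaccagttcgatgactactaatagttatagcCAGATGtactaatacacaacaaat
HOXA7, chr7:27156676-27156925, minus strand: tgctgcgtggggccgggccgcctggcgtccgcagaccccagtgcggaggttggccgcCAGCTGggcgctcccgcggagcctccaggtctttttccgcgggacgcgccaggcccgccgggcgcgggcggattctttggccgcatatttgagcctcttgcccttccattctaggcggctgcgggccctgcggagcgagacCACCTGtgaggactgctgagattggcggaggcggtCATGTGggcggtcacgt
HOXA13, chr7:27200092-27200341, minus strand: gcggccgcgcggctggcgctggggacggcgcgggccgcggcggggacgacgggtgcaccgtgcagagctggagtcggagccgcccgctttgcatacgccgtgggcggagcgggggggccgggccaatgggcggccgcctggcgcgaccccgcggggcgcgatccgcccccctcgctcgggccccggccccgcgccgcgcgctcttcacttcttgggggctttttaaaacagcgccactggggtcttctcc

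The HOXA4, HOXA6, HOXA7 and HOXA13 windows hold 2, 2, 3 and 0 CANNTG matches, a motif that reads the same on both strands. The letters CAGATG, one form of CANNTG searched on both strands, occur once in the HOXA6 window and in none of the other 3. Of all 35116 RefSeq promoter windows of this length, 61.8% hold CANNTG and 12.2% hold CAGATG, and of the 18 HOX genes with a single window 16 hold CANNTG. The windows are rich in CG, with 26, 27, 28 and 40 CG dinucleotides, against a median of 11 over all windows and 21 over the 18. A match is a description of the letters and says nothing of binding.

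HOXA5 had 4.53 and 4.07 CPM in J4-2uM libraries, against 9.37 and 8.44 CPM in J4-control libraries (log2 fold change -1.04 ± 0.08, adjusted p = 1.13e-07). HOXA6 had 2.43 and 2.43 CPM in J4-2uM libraries, against 5.65 and 5.41 CPM in J4-control libraries (log2 fold change -1.18 ± 0.09, adjusted p = 7.41e-08). HOXA7, the highest HOXA gene, had 14.5 and 14.2 CPM in J4-2uM libraries, against 22.1 and 23.4 CPM in J4-control libraries (log2 fold change -0.66 ± 0.05, adjusted p = 7.04e-08). Both J4-2uM libraries lay below both J4-control libraries for each of the 3 genes, and the J4-control level was 2.05 times that in J4-2uM libraries for HOXA5 and 2.27 times for HOXA6. HOXA4 had 1.23 and 1.49 CPM in J4-2uM libraries, against 0.458 and 0.402 CPM in J4-control libraries (log2 fold change 1.67 ± 0.20, adjusted p = 6.04e-06), so both treated libraries lay above both controls. HOXA-AS3, an antisense RNA that overlaps 62.5% of HOXA7 exonic length and 39.3% of that of HOXA6 on the opposite strand, had 14 and 14 reads in J4-2uM libraries, against 19 and 29 reads in J4-control libraries (log2 fold change -1.03 ± 0.30, adjusted p = 0.00715), while HOXA7 had 1203 and 1105 reads in J4-2uM libraries and 1252 and 1799 reads in J4-control libraries. HOXA-AS3 is named here after its values were seen, and the strand setting of the counting is not stated.

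In the shRNA lines the responses of these genes differed from those to GSK-J4, by the tests of the differences given further on. In the UTX-labelled line HOXA5 fell, with 7.69 and 7.96 CPM in UTX-KD libraries, against 8.78 and 8.77 CPM in UTX-control libraries (log2 fold change -0.19 ± 0.07, adjusted p = 0.0247), and the call was lost without UTX-control replicate 1, UTX-control replicate 2 or UTX-KD replicate 1 (adjusted p = 0.0930, 0.0647 and 0.0982). HOXA4, HOXA6 and HOXA7 were not called there, with log2 fold changes of -0.11 ± 0.29, -0.07 ± 0.08 and -0.10 ± 0.05. HOXA4 had 0.457 and 0.305 CPM in UTX-KD libraries, against 0.473 and 0.313 CPM in UTX-control libraries. HOXA6 had 4.95 and 5.02 CPM in UTX-KD libraries, against 5.23 and 5.03 CPM in UTX-control libraries. HOXA7 had 22.2 and 23.0 CPM in UTX-KD libraries, against 23.4 and 24.5 CPM in UTX-control libraries. HOXA4 libraries of the 2 groups interleaved, and those of HOXA6 and HOXA7 nearly met. In the TAL1-labelled line HOXA5 had 3.57 and 2.98 CPM in TAL1-KD libraries, against 4.52 and 4.39 CPM in TAL1-control libraries (log2 fold change -0.47 ± 0.16, adjusted p = 0.0407). HOXA7 had 20.3 and 19.7 CPM in TAL1-KD libraries, against 16.5 and 15.3 CPM in TAL1-control libraries (log2 fold change 0.31 ± 0.10, adjusted p = 0.0328). HOXA5 thus fell and HOXA7 rose in that comparison, but both calls were lost without TAL1-control replicate 1 (adjusted p = 0.263 for HOXA5 and 0.192 for HOXA7) or replicate 2 (adjusted p = 0.196 and 0.379). HOXA6 had 3.08 and 2.16 CPM in TAL1-KD libraries, against 3.12 and 3.11 CPM in TAL1-control libraries, with the 2 TAL1-KD libraries far apart (log2 fold change -0.27 ± 0.20, adjusted p = 0.289). HOXA4 had 0.601 and 0.751 CPM in TAL1-KD libraries, against 0.468 and 0.438 CPM in TAL1-control libraries (log2 fold change 0.55 ± 0.25, adjusted p = 0.101).

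HOXA13, the terminal gene of the cluster, which patterns the distal limb and the genital tubercle, fell in all 3 comparisons. It had 0.200 and 0.322 CPM in TAL1-KD libraries, against 2.18 and 1.98 CPM in TAL1-control libraries (log2 fold change -3.01 ± 0.27, adjusted p = 0.000333). In the UTX-labelled line it had 0.499 and 0.406 CPM in UTX-KD libraries, against 1.01 and 1.10 CPM in UTX-control libraries (log2 fold change -1.23 ± 0.21, adjusted p = 9.59e-05). With GSK-J4 it had 1.53 and 1.17 CPM in J4-2uM libraries, against 1.88 and 2.14 CPM in J4-control libraries (log2 fold change -0.58 ± 0.15, adjusted p = 0.00395). The groups did not overlap in any comparison, each call held without any 1 library, and the drop was deepest in TAL1-KD libraries, to 11 and 18 reads. HOXA3, needed for the thymus in mice, fell in the TAL1-labelled line, with 2.59 and 1.73 CPM in TAL1-KD libraries, against 4.91 and 5.05 CPM in TAL1-control libraries (log2 fold change -1.23 ± 0.21, adjusted p = 0.00254). It had 4.49 and 3.99 CPM in UTX-KD libraries, against 3.62 and 3.83 CPM in UTX-control libraries (log2 fold change 0.17 ± 0.10, adjusted p = 0.151). It had 4.54 and 4.60 CPM in J4-2uM libraries, against 4.58 and 4.47 CPM in J4-control libraries (log2 fold change 0.02 ± 0.08, adjusted p = 0.823), with no call in either. HOXA2, which patterns the second pharyngeal arch, had 8 and 12 reads in TAL1-KD, 19 and 11 in TAL1-control, 12 and 18 in UTX-KD, 18 and 10 in UTX-control, 17 and 22 in J4-2uM and 7 and 20 in J4-control libraries, and its groups overlapped each time. HOXA11, with at most 12 reads in any library, was not tested.

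In the HOXC cluster, 2 genes fell and none rose in TAL1-KD libraries, 1 rose and 1 fell in UTX-KD libraries, and 3 rose and 2 fell in J4-2uM libraries, of 7, 6 and 7 tested. These are 28.6%, 33.3% and 71.4% of those tested, against 54.2%, 50.5% and 74.9% of all genes. In TAL1-KD libraries none was called higher by edgeR, with 0 higher at an unadjusted p under 0.05 and 0 called higher by DESeq2, although 1 was called higher without TAL1-KD replicate 1, with all 12 libraries in 1 fit and with the trend with length and GC content removed. HOXC4, which is active in lymphocytes, moved in opposite directions. It had 0.619 and 0.447 CPM in TAL1-KD libraries, against 1.33 and 1.58 CPM in TAL1-control libraries (log2 fold change -1.47 ± 0.25, adjusted p = 0.00256). By contrast it had 0.974 and 0.835 CPM in J4-2uM libraries, against 0.493 and 0.415 CPM in J4-control libraries (log2 fold change 1.01 ± 0.21, adjusted p = 0.000709). HOXC4 had 9 and 9 reads in UTX-KD libraries, against 8 and 7 reads in UTX-control libraries and was not tested there. HOXC6 had 2.19 and 1.82 CPM in J4-2uM libraries, against 1.29 and 1.19 CPM in J4-control libraries (log2 fold change 0.71 ± 0.15, adjusted p = 0.000678). It had 0.776 and 0.798 CPM in UTX-KD libraries, against 0.536 and 0.418 CPM in UTX-control libraries (log2 fold change 0.67 ± 0.22, adjusted p = 0.0165), so both treated libraries lay above both controls in each. The UTX-KD call of HOXC6 was lost without UTX-control replicate 2 (adjusted p = 0.104) or UTX-KD replicate 2 (adjusted p = 0.0667). In the TAL1-labelled line HOXC6 had 1.29 and 1.05 CPM in TAL1-KD libraries, against 0.950 and 0.859 CPM in TAL1-control libraries, without a call (log2 fold change 0.35 ± 0.22, adjusted p = 0.212).

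HOXC10, which patterns the lumbar region in mice and was the highest HOXC gene per length, had 26.3 and 24.5 CPM in J4-2uM libraries, against 21.1 and 20.8 CPM in J4-control libraries (log2 fold change 0.28 ± 0.05, adjusted p = 0.000131). It had 20.4 and 21.7 CPM in TAL1-KD libraries, against 17.9 and 18.2 CPM in TAL1-control libraries (log2 fold change 0.20 ± 0.09, adjusted p = 0.107). It had 15.3 and 15.8 CPM in UTX-KD libraries, against 14.8 and 15.4 CPM in UTX-control libraries (log2 fold change 0.02 ± 0.05, adjusted p = 0.781). Neither difference was called, and in the UTX-labelled line the groups overlapped. HOXC11, its posterior neighbour, had 2.95 and 2.43 CPM in TAL1-KD libraries, against 4.68 and 4.48 CPM in TAL1-control libraries (log2 fold change -0.79 ± 0.17, adjusted p = 0.00597). With GSK-J4 HOXC11 had 4.56 and 4.75 CPM in J4-2uM libraries, against 6.09 and 5.27 CPM in J4-control libraries (log2 fold change -0.27 ± 0.09, adjusted p = 0.0158), a call lost without J4-control replicate 1 (adjusted p = 0.160). In the UTX-labelled line it had 3.73 and 3.70 CPM in UTX-KD libraries, against 3.79 and 3.46 CPM in UTX-control libraries, where the groups overlapped (log2 fold change 0.01 ± 0.10, adjusted p = 0.972). HOXC10 and HOXC11, side by side, thus moved in opposite directions with GSK-J4 by edgeR. The HOXC11 call was lost in 4 of 13 alternatives, DESeq2 among them (adjusted p = 0.0895). HOXC13, which controls hair keratin genes, had 0.301 and 0.321 CPM in J4-2uM libraries, against 0.775 and 0.818 CPM in J4-control libraries (log2 fold change -1.35 ± 0.22, adjusted p = 9.52e-05). It had 17 and 7 reads in TAL1-KD libraries, against 31 and 29 reads in TAL1-control libraries (log2 fold change -1.06 ± 0.40, adjusted p = 0.0576). It had 17 and 15 reads in UTX-KD libraries, against 20 and 9 reads in UTX-control libraries (log2 fold change 0.09 ± 0.36, adjusted p = 0.868), with no call in either.

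HOXC8 and HOXC9, genes of the thoracic region, were low. HOXC8 had 11 and 9 reads in UTX-KD libraries, against 21 and 18 reads in UTX-control libraries (log2 fold change -1.01 ± 0.36, adjusted p = 0.0264). It passed the filter only through the UTX-control libraries, and the call was lost without any 1 of the 4 libraries, with adjusted p from 0.0663 to 0.148. It had 21 and 23 reads in TAL1-KD libraries, against 23 and 26 reads in TAL1-control libraries (log2 fold change 0.10 ± 0.28, adjusted p = 0.788). It had 42 and 47 reads in J4-2uM libraries, against 34 and 34 reads in J4-control libraries (log2 fold change 0.12 ± 0.24, adjusted p = 0.656), and the groups overlapped in both. HOXC9 was called in none, with 10 and 18 reads in TAL1-KD libraries, against 18 and 17 reads in TAL1-control libraries (log2 fold change -0.07 ± 0.37, adjusted p = 0.891). It had 15 and 13 reads in UTX-KD libraries, against 20 and 20 reads in UTX-control libraries (log2 fold change -0.57 ± 0.34, adjusted p = 0.176). It had 40 and 37 reads in J4-2uM libraries, against 36 and 47 reads in J4-control libraries (log2 fold change -0.37 ± 0.21, adjusted p = 0.132).

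Of the HOXD cluster only 3 genes were expressed enough to be tested, HOXD8, HOXD12 and HOXD13. HOXD12, a posterior limb gene, had 0.228 and 0.308 CPM in J4-2uM libraries, against 0.934 and 1.14 CPM in J4-control libraries (log2 fold change -1.96 ± 0.24, adjusted p = 5.52e-06), so the J4-control level was 3.90 times the J4-2uM level. It had 0.291 and 0.214 CPM in TAL1-KD libraries, against 0.667 and 0.547 CPM in TAL1-control libraries (log2 fold change -1.28 ± 0.30, adjusted p = 0.00965), a call lost without TAL1-control replicate 1 (adjusted p = 0.0723). It had 0.734 and 0.740 CPM in UTX-KD libraries, against 0.735 and 0.748 CPM in UTX-control libraries, where the groups overlapped (log2 fold change -0.03 ± 0.20, adjusted p = 0.921). HOXD13, next to HOXD12, was called in no comparison. It had 18.3 and 17.5 CPM in J4-2uM libraries, against 18.2 and 18.1 CPM in J4-control libraries (log2 fold change -0.02 ± 0.05, adjusted p = 0.793, 95% interval -0.12 to 0.09). It had 14.8 and 13.6 CPM in TAL1-KD libraries, against 12.8 and 13.4 CPM in TAL1-control libraries (log2 fold change 0.10 ± 0.11, adjusted p = 0.472). It had 9.34 and 9.60 CPM in UTX-KD libraries, against 9.65 and 9.29 CPM in UTX-control libraries (log2 fold change -0.03 ± 0.06, adjusted p = 0.768). HOXD13 groups overlapped with GSK-J4 and in the UTX-labelled line and lay apart in the TAL1-labelled one. HOXD8 fell in the TAL1-labelled line, with 17.6 and 15.7 CPM in TAL1-KD libraries, against 26.1 and 26.8 CPM in TAL1-control libraries (log2 fold change -0.69 ± 0.10, adjusted p = 0.00142). It had 17.3 and 17.6 CPM in UTX-KD libraries, against 16.3 and 15.6 CPM in UTX-control libraries (log2 fold change 0.11 ± 0.05, adjusted p = 0.0865). It had 17.3 and 15.6 CPM in J4-2uM libraries, against 16.0 and 17.8 CPM in J4-control libraries (log2 fold change -0.04 ± 0.06, adjusted p = 0.596), without a call. HOXD3, HOXD10 and HOXD11 had at most 10, 4 and 6 reads in any library and were not tested.

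Whether the responses themselves differed was tested in 1 model of 8 libraries for each pair of comparisons, which pools their spread. The edgeR estimate of biological variation was 5.97% for TAL1-KD with UTX-KD and 6.07% for TAL1-KD with J4-2uM. For TAL1-KD alone it was 8.40%, so p-values of differences that involve TAL1-KD may be too small. The response to TAL1-KD was higher than the response to UTX-KD for 3 HOX genes and lower for 9 of 24 tested. Of all genes 50.1% were called, 25.0% higher and 25.1% lower. Against the response to J4-2uM it was higher for 4 and lower for 8 of 26, against 53.9% of all genes, 26.3% higher and 27.6% lower. The response to UTX-KD was higher than that to J4-2uM for 6 and lower for 5 of 25, against 58.4% of all genes, 30.2% higher and 28.3% lower. The response to TAL1-KD was lower than either of the others for 7 genes, HOXB9, HOXB5, HOXC4, HOXA3, HOXA13, HOXC11 and HOXD8. Both tests use the same TAL1-KD and TAL1-control libraries, so they are not independent. The share of all genes lower in both was not computed. The difference from the UTX-KD response was -1.36 ± 0.23 (adjusted p = 0.00106) for HOXA3, -1.75 ± 0.34 (adjusted p = 0.00243) for HOXA13, -0.77 ± 0.17 (adjusted p = 0.00512) for HOXC11 and -0.77 ± 0.10 (adjusted p = 0.000366) for HOXD8. For HOXB9 it was -3.19 ± 0.48 (adjusted p = 0.000646), for HOXB5 -1.58 ± 0.54 (adjusted p = 0.0346) and for HOXC4 -1.64 ± 0.49 (adjusted p = 0.0208). With DESeq2 the difference from UTX-KD was lost for HOXB5 (adjusted p = 0.158) and HOXC4 (adjusted p = 0.0541), and the difference from J4-2uM for HOXC11 (adjusted p = 0.0623). HOXB4 had a higher response to TAL1-KD than to UTX-KD by 0.63 ± 0.10 (adjusted p = 0.000701) and than to J4-2uM by 0.56 ± 0.10 (adjusted p = 0.000743). HOXC4 responded in opposite directions to TAL1-KD and GSK-J4, with a difference of -2.45 ± 0.32 (adjusted p = 9.23e-05). The drop of HOXA5, HOXA6 and HOXA7 and the rise of HOXA4 with GSK-J4 differed from the UTX-KD responses by 0.84 ± 0.11 (adjusted p = 1.45e-07), 1.10 ± 0.13 (adjusted p = 1.5e-08), 0.55 ± 0.07 (adjusted p = 1.26e-07) and -1.78 ± 0.37 (adjusted p = 0.000131). HOXD12 likewise differed between UTX-KD and J4-2uM by 1.93 ± 0.31 (adjusted p = 4.99e-06). For HOXB9 the UTX-KD response minus the J4-2uM response was 0.65 ± 0.62 (95% interval -0.62 to 1.93, adjusted p = 0.386), and for HOXB3 it was -0.06 ± 0.06 (95% interval -0.19 to 0.07), so no difference was detected and the intervals allow one.

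HOX levels also differed between the 3 control groups, each Jurkat cells without doxycycline or inhibitor. UTX-control libraries were higher than TAL1-control libraries for 4 HOX genes and lower for 12 of 24 tested. Of all genes 72.2% were called, 36.3% higher and 35.9% lower. J4-control libraries were higher than TAL1-control libraries for 13 and lower for 5 of 24, against 71.8% of all genes, 39.7% higher and 32.1% lower. They were higher than UTX-control libraries for 15 and lower for 0, against 49.6% of all genes, 24.6% higher and 25.0% lower. That 0 came from edgeR, with 0 lower at an unadjusted p under 0.05 and 0 by DESeq2. No filter on low counts gave 2 lower calls and DESeq2 size factors or the fit without UTX-control replicate 2 gave 1 each. Leaving out UTX-control replicate 1 left 8 of the 15 higher. Line, medium and vehicle cannot be told apart from the control group here.

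HOXB9 differed most, with 46 and 40 reads in J4-control, 3 and 2 reads in UTX-control and 351 and 287 reads in TAL1-control libraries. The depth-scaled TAL1-control sum was 131 (95% interval 55.7 to 404) times the UTX-control sum, a ratio larger than that of any of its 3 treatment responses. HOXC4 had 0.493 and 0.415 CPM in J4-control, 0.0997 and 0.122 CPM in UTX-control and 1.33 and 1.58 CPM in TAL1-control libraries (UTX-control against TAL1-control, log2 fold change -3.66 ± 0.28, adjusted p = 7.83e-10). HOXB5 had 2 and 3 reads in J4-control, 3 and 3 reads in UTX-control and 35 and 28 reads in TAL1-control libraries. These 3 genes were thus highest in the TAL1 shRNA line. HOXA5, HOXA6 and HOXA7 were lower in that line. UTX-control exceeded TAL1-control by 1.03 ± 0.08 (adjusted p = 1.04e-09), 0.78 ± 0.09 (adjusted p = 3.87e-07) and 0.63 ± 0.05 (adjusted p = 3.01e-09) on the log2 scale. J4-control exceeded TAL1-control by 1.04 ± 0.08 (adjusted p = 9.29e-10), 0.88 ± 0.09 (adjusted p = 6.79e-08) and 0.57 ± 0.05 (adjusted p = 1.8e-08). HOXC genes were higher in J4-control than in UTX-control libraries for all 7 tested, against 24.6% of all genes called higher. The differences ran from 0.48 ± 0.05 (adjusted p = 3.36e-07) for HOXC10 to 2.03 ± 0.36 (adjusted p = 0.000152) for HOXC4. DESeq2 called 5 HOXC genes higher. The HOXC8 and HOXC9 calls were lost without UTX-control replicate 1. With 1 library left out, their differences ranged over 0.63 to 1.08 and 0.77 to 1.25. HOXD13 was 0.94 ± 0.06 (adjusted p = 1.94e-10) higher in J4-control than in UTX-control libraries. HOXB3 and HOXB4 differed little, with the highest control mean 1.10 and 1.10 times the lowest.

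**Figure D5:**
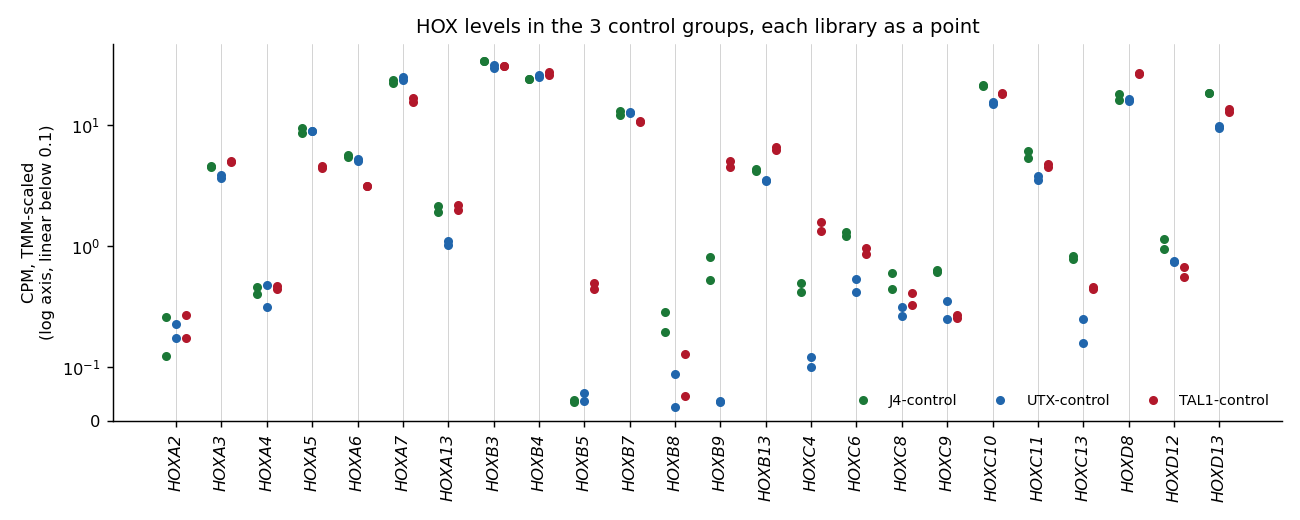
TMM-scaled CPM of the 24 HOX genes tested between controls, in the 2 libraries of each control group (log axis, linear below 0.1 CPM). HOXB9, HOXB5 and HOXC4 spread most, with the TAL1-control points on top, while the points of HOXB3 and HOXB4 nearly coincide.

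Noncoding RNAs transcribed from the clusters were read beside the genes. Of 20 listed, 8 were tested in TAL1-KD against TAL1-control libraries, where 1 rose and 5 fell. There were 6 tested in UTX-KD against UTX-control, where 1 rose, and 7 tested with GSK-J4, where 3 rose and 2 fell. These are 75.0%, 16.7% and 71.4% of those tested, against 54.2%, 50.5% and 74.9% of all genes. Their median log2 fold change was -0.81 for TAL1-KD, -0.10 for UTX-KD and -0.38 for J4-2uM. HOTAIR, a Polycomb-associated RNA of the HOXC cluster that lies next to HOXC11, had 32 and 13 reads in TAL1-KD libraries, against 91 and 125 reads in TAL1-control libraries (log2 fold change -2.01 ± 0.40, adjusted p = 0.00471). HOXA11-AS, antisense to HOXA11, had 7 and 0 reads in TAL1-KD libraries, against 39 and 36 reads in TAL1-control libraries (log2 fold change -3.12 ± 0.65, adjusted p = 0.00583). It passed the filter only through the TAL1-control libraries. HOTAIR and HOXA11-AS fell in the libraries where HOXC11 and HOXA13 also fell. HOXA11 itself, not tested, had 0 and 4 reads in TAL1-KD libraries, against 9 and 12 reads in TAL1-control libraries. HOXC-AS3 had 4 and 7 reads in TAL1-KD libraries, against 29 and 22 reads in TAL1-control libraries (log2 fold change -1.93 ± 0.39, adjusted p = 0.00533), and in J4-2uM libraries it had 9 and 12 reads, against 24 and 47 reads in J4-control libraries (adjusted p = 9.61e-05). It passed the filter in both only through the control libraries. HAGLR, from the anterior HOXD region, rose in UTX-KD libraries (log2 fold change 0.59 ± 0.11, adjusted p = 0.000147) and in J4-2uM libraries (log2 fold change 1.07 ± 0.08, adjusted p = 7.76e-08). In TAL1-KD libraries it fell, with 249 and 190 reads, against 427 and 393 reads in TAL1-control libraries (log2 fold change -0.64 ± 0.17, adjusted p = 0.0160), a value added here after it was seen. HAGLR had 867 and 795 reads in J4-2uM libraries, against 251 and 411 reads in J4-control libraries, while HOXD1 beside it had no entry. HOXD4 had 2 and 0 reads in J4-2uM libraries, against 1 and 0 reads in J4-control libraries. HOXD3, not tested, had 10 and 5 reads in J4-2uM libraries, against 1 and 2 reads in J4-control libraries. The HOXD3 ratio of depth-scaled sums was 4.15 (exact interval 1.17 to 22.4, covering counting error only). HAGLROS, the antisense partner of HAGLR, fell in TAL1-KD libraries (log2 fold change -0.97 ± 0.18, adjusted p = 0.00334) and rose in J4-2uM libraries (log2 fold change 0.68 ± 0.09, adjusted p = 1.17e-05). HOTAIRM1, from the anterior end of the HOXA cluster, rose in J4-2uM libraries by a log2 fold change of 0.46 ± 0.10 (adjusted p = 0.00108).

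The partners and regulators of HOX proteins were read from listed genes, beside 54.2%, 50.5% and 74.9% of all genes called in TAL1-KD, UTX-KD and J4-2uM libraries. Among 9 cofactors, which bind DNA together with HOX proteins, 3 fell of 8 tested in TAL1-KD, 2 rose and 2 fell of 7 tested in UTX-KD and 4 rose and 1 fell of 8 tested in J4-2uM libraries (37.5%, 57.1% and 62.5% called), with median log2 fold changes of -0.41 for TAL1-KD, -0.06 for UTX-KD and 0.17 for J4-2uM. PBX3 fell in TAL1-KD libraries (log2 fold change -1.20 ± 0.09, adjusted p = 0.000237) and so did MEIS2 (log2 fold change -0.77 ± 0.12, adjusted p = 0.00204). PBX4 rose in J4-2uM libraries by a log2 fold change of 1.34 ± 0.06 (adjusted p = 1.92e-10) and MEIS1 by 0.57 ± 0.10 (adjusted p = 0.000113), and PBX2 rose in UTX-KD libraries by a log2 fold change of 0.13 ± 0.03 (adjusted p = 0.00221). Among 15 Polycomb genes, 3 rose and 4 fell of 14 tested in TAL1-KD, 7 rose and 4 fell of 14 tested in UTX-KD and 6 rose and 5 fell of 14 tested in J4-2uM libraries (50.0%, 78.6% and 78.6% called), with median log2 fold changes of 0.00 for TAL1-KD, 0.07 for UTX-KD and 0.01 for J4-2uM. EZH2, the main methyltransferase of the Polycomb mark, fell in TAL1-KD libraries (log2 fold change -0.81 ± 0.08, adjusted p = 0.000421) and in UTX-KD libraries (log2 fold change -0.32 ± 0.03, adjusted p = 1.02e-07). EED, its partner, fell in both (log2 fold changes -0.80 ± 0.08 and -0.31 ± 0.04, adjusted p = 0.000447 and 1.83e-06). EZH1, the second methyltransferase, rose in J4-2uM libraries by a log2 fold change of 0.63 ± 0.04 (adjusted p = 6.21e-09), and PHC1, a subunit of the other Polycomb complex, by 0.89 ± 0.03 (adjusted p = 7.86e-11). Among 10 Trithorax-type genes, 5 rose and 1 fell of 9 tested in TAL1-KD, 2 rose and 3 fell of 9 tested in UTX-KD and 6 rose and 3 fell of 9 tested in J4-2uM libraries (66.7%, 55.6% and 100% called), with median log2 fold changes of 0.23 for TAL1-KD, -0.02 for UTX-KD and 0.26 for J4-2uM. KDM6B, the second KDM6 demethylase, rose in TAL1-KD libraries by a log2 fold change of 0.93 ± 0.08 (adjusted p = 0.000298), in UTX-KD libraries by 0.45 ± 0.03 (adjusted p = 3.01e-09) and in J4-2uM libraries by 0.39 ± 0.03 (adjusted p = 1.09e-07). KDM6A rose in J4-2uM libraries by a log2 fold change of 0.44 ± 0.04 (adjusted p = 1.24e-07). PSIP1, which tethers the KMT2A complex to chromatin, fell in TAL1-KD libraries (log2 fold change -0.72 ± 0.08, adjusted p = 0.000546) and rose in J4-2uM libraries by a log2 fold change of 0.35 ± 0.03 (adjusted p = 3.36e-07).

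The genes that flank the clusters were called in part. Among 13 flanking genes, 1 rose and 3 fell of 8 tested in TAL1-KD, 2 rose and 1 fell of 8 tested in UTX-KD and 4 rose and 4 fell of 9 tested in J4-2uM libraries, with median log2 fold changes of -0.16 for TAL1-KD, 0.04 for UTX-KD and 0.03 for J4-2uM. These are 50.0%, 37.5% and 88.9% of those tested, against 54.2%, 50.5% and 74.9% of all genes. CBX5, a heterochromatin protein gene beside the HOXC cluster, fell in TAL1-KD libraries (log2 fold change -0.91 ± 0.10, adjusted p = 0.000561), in UTX-KD libraries (log2 fold change -0.35 ± 0.03, adjusted p = 3.08e-08) and in J4-2uM libraries (log2 fold change -0.57 ± 0.03, adjusted p = 5.92e-09). CALCOCO1, on the other side of the HOXC cluster, rose by log2 fold changes of 0.39 ± 0.07 (adjusted p = 0.00366), 0.65 ± 0.04 (adjusted p = 1.99e-10) and 0.52 ± 0.04 (adjusted p = 8.92e-08) in the same 3 groups. SKAP1, a T-cell adaptor beside the HOXB cluster, rose in UTX-KD libraries by a log2 fold change of 0.29 ± 0.04 (adjusted p = 1.15e-05) and in J4-2uM libraries by 0.44 ± 0.06 (adjusted p = 1.06e-05). Of 10 other homeobox factors linked to T-cell leukaemia or upstream of HOX genes, none of 3 tested was called in TAL1-KD libraries by edgeR or at an unadjusted p under 0.05. In UTX-KD libraries 1 of 2 tested rose, and in J4-2uM libraries both, and HHEX, a blood homeobox gene, rose in J4-2uM libraries by a log2 fold change of 1.00 ± 0.20 (adjusted p = 0.000512).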

How the data were processed

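RNA was extracted with RNeasy columns and DNase I and made into libraries with the Illumina TruSeq stranded mRNA kit, per the labels' protocols. The authors deposited whole-number read counts per Ensembl gene in 3 tables, 1 for each treatment and its control, with 4 libraries in each. Reads were aligned with TopHat2 2.0.12 to hg19 and counted with HTSeq 0.6.1p1, and DESeq2 is also named, per the submitters' processing notes, while the annotation, strand setting and treatment of multi-mapped reads are not given in the sources used here. The authors' DESeq2 output is also deposited beside the counts, as a mean normalised signal per gene, a log2 fold change, a Wald score and a p-value with its adjusted p-value, and none of these is printed here. Each table lists only genes with at least 1 read over its 4 libraries.

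Groups were taken from the labels. The counts were tested as deposited with edgeR 4.0.16 (filterByExpr, TMM, quasi-likelihood F-test, two-sided, Benjamini-Hochberg adjusted p under 0.05 over all genes tested), with 4 libraries for each treatment comparison, 8 for a difference of responses and the 6 control libraries for differences between controls. The standard error is the absolute log2 fold change divided by the square root of F. Levels are CPM scaled by TMM over all 12 libraries, and CPM per kb divides them by GENCODE 29 exonic length. The ratios of reads have exact 95% intervals that cover counting error only. The edgeR estimate of biological variation was 8.40% for the TAL1-KD comparison, 2.30% for UTX-KD and 2.69% for J4-2uM.

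Gene names came from a table of Ensembl identifiers and symbols. HOX genes with a mean of at least 10 reads per library in a comparison are described one by one, others by counts and ranges, and genes of the lists are named by smallest adjusted p, at most 4 per list and comparison. The members and lists were chosen with earlier results of these data known. Alternatives were DESeq2 1.42.0, its size factors, other filters and thresholds, a replicate block, 1 fit of all 12 libraries, removal of a trend with length and GC content (added after seeing the data), and leaving out each library. The fits were tested on simulated counts with known changes.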

Additional observations from a re-analysis of the deposited data

Results flagged for a closer look

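The results collected here are HOX genes whose responses to 2 treatments differed in the interaction test over 8 libraries (edgeR, adjusted p under 0.05), each with the difference of log2 fold changes in parentheses. The response to TAL1-KD minus the response to UTX-KD was negative for HOXB9 (-3.19), HOXA13 (-1.75), HOXC4 (-1.64), HOXB5 (-1.58), HOXA3 (-1.36), HOXD12 (-1.23), HOXC11 (-0.77), HOXD8 (-0.77) and HOXB7 (-0.35). It was positive for HOXC8 (1.14), HOXB4 (0.63) and HOXA7 (0.44).

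Against the response to J4-2uM, the response to TAL1-KD was lower for HOXB5 (-3.19), HOXB9 (-2.52), HOXC4 (-2.45), HOXA13 (-2.40), HOXA3 (-1.22), HOXA4 (-1.09), HOXD8 (-0.62) and HOXC11 (-0.48). It was higher for HOXA7 (0.99), HOXA6 (0.94), HOXA5 (0.60) and HOXB4 (0.56).

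The response to UTX-KD was lower than the response to J4-2uM for HOXB2 (-2.95), HOXA4 (-1.78), HOXC8 (-1.14), HOXA13 (-0.66) and HOXC10 (-0.27), and higher for HOXD12 (1.93), HOXC13 (1.43), HOXA6 (1.10), HOXA5 (0.84), HOXA7 (0.55) and HOXB7 (0.27). HOXB2 and HOXB5 had few reads in the UTX-labelled and J4-control libraries, as had HOXB9 in UTX-control libraries. TAL1 was not called lower at the mRNA level in TAL1-KD libraries, nor KDM6A in UTX-KD libraries. TAL1 was called lower in UTX-KD and in J4-2uM libraries. The 3 comparisons also differ in line, medium and agent, so these cannot be told apart from the treatment. Groups of 2 libraries are too small for a search for single libraries that stand apart. Of all genes tested, 50.1%, 53.9% and 58.4% differed in the same 3 tests.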

How the results depend on the processing

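No called HOX gene changed direction under an alternative that gave it a value, while genes without a call were not followed one by one. The medians over all genes, near 0, did change sign, to 0.09 (TAL1-KD), -0.02 (UTX-KD) and -0.02 (J4-2uM) with the trend with length and GC content removed, against -0.02, 0.01 and 0.01. The TAL1-KD median also changed sign with size factors of DESeq2 (0.003), and the J4-2uM median with the DESeq2 test (-0.003). The HOX genes called higher and lower in TAL1-KD libraries (4 and 7) numbered 0 and 4 where a log2 fold change of at least 1 was required, and ranged over 1 to 6 and 6 to 10 when 1 library was left out. Those in UTX-KD libraries (7 and 3) numbered 3 and 1 at an adjusted p under 0.01, 2 higher at a log2 fold change of at least 1, 4 and 1 with a filter of 1 CPM in 2 libraries, which tests fewer genes, 2 and 1 with DESeq2, and 5 to 7 and 1 to 2 without 1 library. Those in J4-2uM libraries (11 and 7) numbered 6 and 4 at a log2 fold change of at least 1, 7 higher with the 1 CPM filter, and 10 to 11 and 6 to 8 without 1 library. The lower responses to TAL1-KD than to UTX-KD (9) numbered 5 at an adjusted p under 0.01 and 5 with DESeq2, and the lower responses to UTX-KD than to J4-2uM (5) numbered 2 in both.

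Between controls, a log2 fold change of at least 1 left 1 higher and 4 lower of 4 and 12 in UTX-control against TAL1-control, 3 and 3 of 13 and 5 in J4-control against TAL1-control, and 6 of 15 higher in J4-control against UTX-control. DESeq2 called 8 higher in each of the J4-control comparisons. The median over all genes in J4-control against UTX-control was 0.010, but -0.056 with no filter on low counts and -0.041 with size factors of DESeq2. In that comparison the calls of HOXA3, HOXB3, HOXB13 and HOXD12 were each lost in 8 of 12 alternatives. The 0 lower in J4-control against UTX-control became 2 with no filter on low counts and 1 with size factors of DESeq2, and without 1 library its counts ranged over 8 to 15 higher and 0 to 1 lower. Of the single-gene calls, DESeq2 lost 34 of 120, the threshold of 0.01 lost 29 of 123, and fitting all 12 libraries lost 6 of 74. The cause of these differences was not tested.

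Replicate numbers did not pair the libraries (correlations of the replicate differences 0.067, 0.038 and -0.029), and a fit with the replicate number as a block lost 2 of 123 calls, HOXB5 and HOXC8 in the difference between the TAL1-KD and UTX-KD responses. Removing the trend with length and GC content moved the TAL1-KD median by 0.11 on the log2 scale. Over the 3 treatment comparisons together it lost 3 of 39 calls, and in TAL1-KD alone 1 of 11. Groups of 2 libraries, genes with fewer than 10 reads and shRNA targets without a call at the mRNA level limit what can be read from these values.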
